A study of Drosophila melanogaster with 24 samples.

Results

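A set of 57 transcripts was chosen by a threshold rule from 13873 transcripts measured in adult Drosophila melanogaster. Each had a mean level in female whole bodies at least 2 log2 above that in male whole bodies in the lol mutant strain, and a difference under 2 log2 in the control strain w1118. On this scale a difference of 1 log2 is a doubling. The 57 were higher in females in both strains, so the rule picked transcripts whose female bias crossed the threshold in lol, not transcripts that were biased in lol alone. The median female minus male difference in whole bodies was 2.16 log2 in lol and 1.35 log2 in w1118, and the smallest in w1118 was 0.49. These values chose the set and are given as a description.

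The study profiled flies mutant for lol (Lobe-less), which its title describes as a long noncoding RNA with a role in the shape of the mushroom body. Total RNA from 12 whole-body and 12 head samples was hybridised with Cy3 to a 1-colour NimbleGen array carrying 8 probes per transcript. The 8 groups were w1118 females, w1118 males, lol females and lol males, each as whole bodies and as heads, with 3 arrays a group from separate cultures. Cultures were kept at 23 °C, adults were taken on day 2 and frozen, and each RNA sample came from 100 bodies or heads, with heads sieved away from the carcasses. The labels name lol and w1118 and give no further allele for either. The sources used here do not give the kind of lol mutation or say whether the strains share a genetic background. Whole-body RNA pools every tissue, so fewer cells of a type and less RNA per cell cannot be told apart in any whole-body difference below.

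Adult flies differ between the sexes above all in the gonads. In a female the ovaries fill much of the abdomen, and the nurse cells of each egg chamber make large amounts of RNA that is loaded into the egg. Male bodies contain testes and accessory glands, and the fat body and other somatic tissues also differ in what they transcribe. A head holds brain, eyes, antennae and a layer of fat body but no gonad, so it can show whether a difference seen in whole bodies is also present in somatic tissue of the head. The files give FlyBase transcript IDs without gene names, and 0 of the 57 matched a name in the reference table used. The roles of single members are therefore not described, and members are given by ID. The transcripts of lol and of tissue markers were not analysed here, so neither the genotype nor the tissue could be checked against a marker gene.

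The arrays had medians between 12.1 and 12.25 log2. Replicate arrays correlated at 0.912 to 0.97 across transcripts in w1118 male heads, at 0.933 to 0.986 in lol male heads, and at 0.974 or more elsewhere. A total of 4 head arrays stood apart. A set of 213 transcripts, none of them members, that were at least 2 log2 higher (limma, adjusted p under 0.05) in bodies than in heads of w1118 females, and under 0.5 log2 apart between the sexes in w1118 bodies, was used as a measure of body RNA. Its median level was 10.62 and 10.93 on w1118 male head replicates 1 and 2, 10.58 on lol male head replicate 1 and 10.37 on lol female head replicate 1, against 8.68 to 9.11 on the other 8 head arrays. Counts of calls and medians in heads are given below with and without these 4 arrays.

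The female bias of most members lay close to the thresholds. In lol it exceeded 2 log2 by a median of 0.16, and it was 2.5 or more in 6 of the 57, of which 1 exceeded 3. In w1118 it was under 1 log2 for 10, between 1 and 1.5 for 26 and between 1.5 and 2 for 21. Just inside the lol threshold were FBtr0074375, at 2.00 log2 in lol and 1.46 in w1118, and FBtr0082248, at 2.00 and 1.34. Just outside it were FBtr0080591, at 1.99 and 1.57, and FBtr0089630, at 1.99 and 1.01. Just inside the w1118 threshold were FBtr0070952, at 2.18 in lol and 1.89 in w1118, and FBtr0078725, at 2.10 and 1.88. Just outside it were FBtr0070762, at 2.20 and 2.00, and FBtr0076585, at 2.06 and 2.02. The median SE of a female minus male difference was 0.26 log2, wider than the step from the transcripts just inside a threshold to those just outside it, on the value that the threshold applies to.

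**Figure D1:**
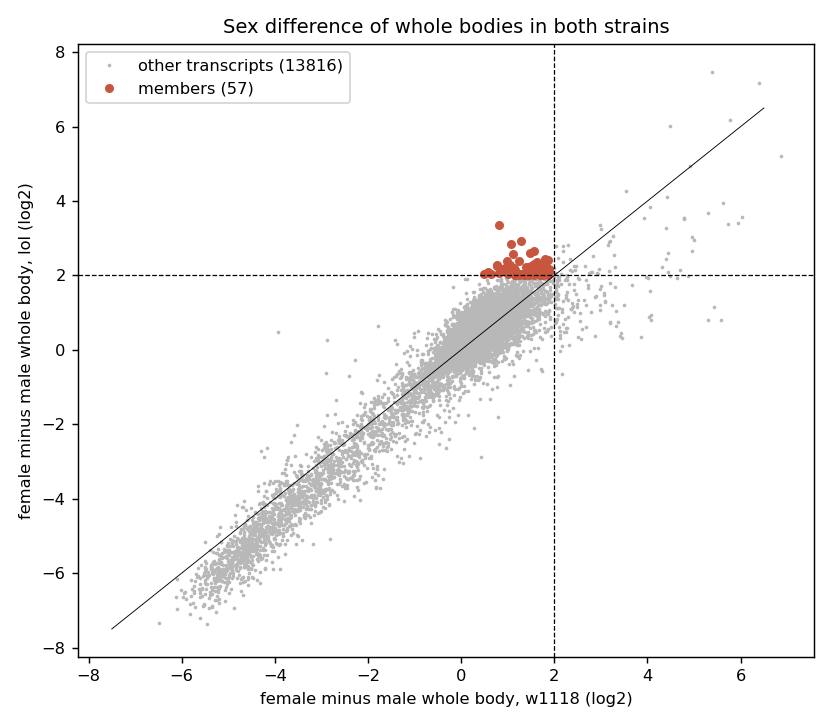
Female minus male difference in whole bodies (log2) in w1118 on the horizontal axis and in lol on the vertical axis. Each point is a transcript, with the 57 members in orange and all other transcripts in grey. Members lie in a band above 2 log2 in lol, and 6 of them are at 2.5 or more.

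The members' lol bias exceeded 2 log2 by more than 1 SE in 19 transcripts, and their w1118 bias lay more than 1 SE under it in 46. Both held in 16, and both held by more than 2 SE in 3. The bias was larger in lol by under 0.5 log2 in 9 members, by 0.5 to 1 in 26 and by 1 or more in 22. In the limma fit, 50 members were called higher in w1118 females than males at an adjusted p under 0.05, beside 29.9% of all transcripts. In lol, 56 were called, beside 43.4%. The rule used these contrasts, so the counts describe the choice.

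Members were weakly expressed as a group. The mean of a member over the 24 arrays had a median of 9.99 log2 and a range of 8.24 to 13.45, while the median over all transcripts was 12.02. Of the 57, 31 fell in the lowest 25% of all transcripts and 5 lay above the median of all. The spread between replicates was wider at these levels. The median SD of a member over 3 arrays was 0.20 in lol female bodies and 0.36 in w1118 male heads, the lowest and highest of the 8 groups, against 0.16 and 0.26 for all transcripts.

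The strains are set side by side here in each sex, on the body arrays that the rule used, so the choice of members shapes these values and they are not tested. The median level of the 57 was 10.17, 10.21 and 10.06 log2 on the 3 w1118 male body arrays and 9.26, 9.42 and 9.39 on the 3 lol male body arrays. It was 11.43, 11.46 and 11.81 on the w1118 female body arrays and 11.57, 11.55 and 11.76 on those of lol. The medians of the lol male arrays were below those of the w1118 male arrays, and the medians of the female groups overlapped. The median lol minus w1118 difference over members was -0.63 log2 in male bodies, where 45 of 57 were below 0, and 0.03 in female bodies, where 29 were above 0. Over all transcripts these medians were -0.03 and 0.005. The male difference was the larger of the pair in 38 members.

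**Figure D2:**
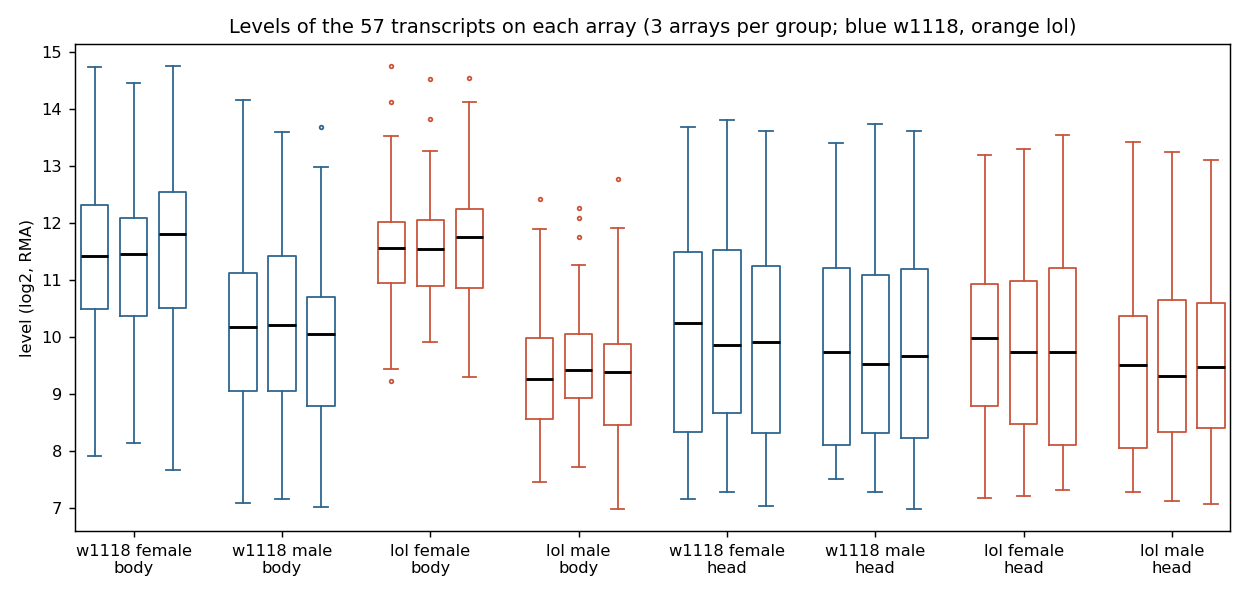
Levels (log2) of the 57 members on each of the 24 arrays, with w1118 in blue and lol in orange. Boxes span the quartiles with a line at the median, and whiskers reach the farthest value within 1.5 box lengths. The medians of the 3 lol male body arrays lie between 9.26 and 9.42, below the 10.06 to 10.21 of the w1118 male body arrays.

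In male bodies, 24 members were called lower in lol, beside 5.76% of all transcripts, and 3 higher, beside 2.89%. In female bodies 9 were called higher, beside 2.57%, and 4 lower, beside 2.30%. Every lol array lay below every w1118 array in male bodies for 31 members, beside 15.8% of all transcripts. In female bodies the same held for 13, beside 11.7%, and every lol array lay above every w1118 array for 18, beside 13.8%. The rule was applied to these same arrays, so nothing is read from these counts. The calls in male bodies, 27 in both directions, were 15 without w1118 male body replicate 2 and 17 without lol male body replicate 1.

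Split at 0.5 log2 in each sex, the members fell into 6 classes. The most frequent, with 25, was lower in lol males and within 0.5 in females. A further 8 were lower in both sexes, 8 were higher in females and within 0.5 in males, 5 were higher in both sexes, 2 were lower in males and higher in females, and 9 stayed within 0.5 in both. The examples that follow come from 3 of these classes.

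**Figure D3:**
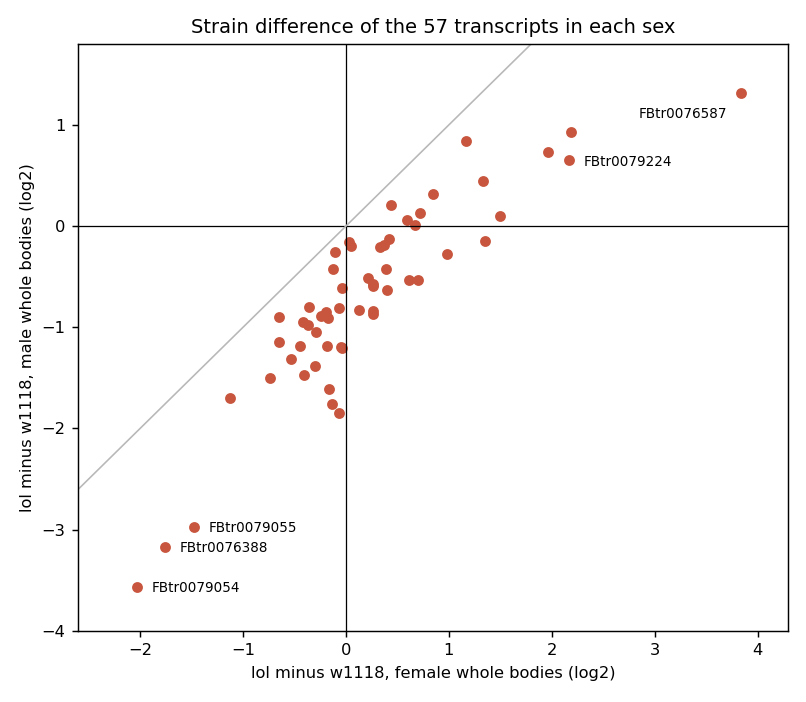
Log2 difference lol minus w1118 in female bodies on the horizontal axis and in male bodies on the vertical axis, 1 point per member, with a grey line where both are equal. On the male axis 45 of 57 members are below 0, while on the female axis 29 are above 0.

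FBtr0086819 showed the most frequent class. Its level in male bodies was 10.26, 10.69 and 10.10 log2 in w1118 and 8.00, 8.61 and 8.90 in lol, a difference of -1.84. In female bodies it was 10.83, 11.60 and 11.80 in w1118 and 10.86, 11.43 and 11.72 in lol. The male groups did not overlap and the female groups did, and the female bias went from 1.06 log2 in w1118 to 2.83 in lol. FBtr0087438 was alike, at 11.26, 10.09 and 10.01 in w1118 male bodies and 8.24, 9.39 and 8.45 in those of lol, with a bias of 1.29 in w1118 and 2.92 in lol. The transcript with the preceding ID number, FBtr0087437, was also a member, with a bias of 1.12 and 2.57. The sources used here do not say whether the pair comes from 1 gene.

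FBtr0076587 had the widest bias in lol, 3.34 log2, and was higher in lol in both sexes. Female bodies were at 7.92, 8.14 and 7.66 in w1118 and at 11.70, 11.12 and 12.41 in lol, a difference of 3.84. Male bodies were at 7.09, 7.16 and 7.02 in w1118 and at 8.65, 8.83 and 7.73 in lol, a difference of 1.32. The w1118 values lie near the bottom of the scale, whose lowest value in the table was 6.61. FBtr0079224 belonged to the same class, with female bodies at 8.75, 8.95 and 9.02 in w1118 and 11.11, 10.75 and 11.38 in lol. Its male bodies were at 8.27, 8.39 and 8.32 in w1118 and 8.76, 9.35 and 8.83 in lol. No lol array overlapped a w1118 array of the same sex for either transcript.

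At the opposite end, FBtr0079054 and FBtr0076388, singled out after their values were seen, were lower in lol in both sexes, with the larger drop in males. FBtr0079054 stood at 14.59, 13.40 and 14.24 in w1118 female bodies and 11.60, 12.86 and 11.68 in lol female bodies. In male bodies it was at 14.17, 13.60 and 12.99 in w1118 and 11.90, 9.80 and 8.37 in lol. The lol male arrays spread over more than 3 log2, and the lol bias of 2.03 was 2.97 without lol male replicate 1 and 1.203 without lol male replicate 3. FBtr0076388 was steadier, at 11.09, 10.73 and 10.44 in w1118 male bodies and 7.62, 7.84 and 7.30 in lol male bodies. Its female bodies were at 11.81, 10.89 and 11.49 in w1118 and 9.44, 10.19 and 9.29 in lol.

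The difference between the strains' biases had a median of 0.77 log2 over the 57, with a median SE of 0.37. In the limma fit 1 member was called higher for this genotype by sex difference in bodies, beside 0.0721% of all transcripts. Called lower were 0 members, beside 0.180% of all transcripts. An unadjusted p under 0.05 was reached by 29 members and by 1643 of all transcripts. The called member was FBtr0079224, at 1.52 log2. The rule is itself a choice on this difference, so the call supports nothing. Among the 60 transcripts at 2 log2 or more in both strains the median was -0.34, and among the 120 at 2 log2 or more in w1118 alone it was -1.35. The 120 were chosen for a low bias in lol, and their median lol minus w1118 difference was -1.29 in female bodies and 0.03 in male bodies.

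Whole-body sets other than the members also moved between the strains. The sets below were chosen by thresholds on w1118 body arrays, which also enter these differences, so the choice shapes their values too. The median difference of the 213 body-enriched, sex-neutral transcripts was -0.15 log2 in male bodies, where 64.3% were below 0, and 0.11 in female bodies, compared with 53.1% below 0 in male bodies over all transcripts. Their median was 13.31 to 13.61 on w1118 male arrays and 13.09 to 13.26 on lol male arrays. The 1439 transcripts called at least 2 log2 higher in male than female w1118 bodies had a median difference of 0.35 in male bodies, with 207 below 0. Their median was 12.65, 12.63 and 12.93 on the w1118 male arrays and 13.11, 13.10 and 13.04 on the lol male arrays. The part of these shifts in the members' difference was not tested.

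The rule was also applied to 2 of the 3 replicate numbers at a time, and the chosen transcripts were read on the arrays left out. With replicate 1 left out, 51 transcripts were chosen, and on its arrays their median bias was 1.99 log2 in lol and 1.25 in w1118, larger in lol for 45. With replicate 2 left out, 63 were chosen, with medians of 1.86 and 0.95, and the bias was larger in lol for 53. With replicate 3 left out, 47 were chosen, with medians of 2.17 and 1.89, and it was larger in lol for 36. Over all transcripts the bias was larger in lol in 54.0, 55.8 and 54.3%. The median male difference on the arrays left out was -0.61, -0.42 and -0.37, and the median female difference -0.06, -0.02 and -0.18. The rule itself was met again on the arrays left out by 24, 19 and 17 of the chosen transcripts.

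Heads gave arrays that the rule had not used, but strain differences in heads and bodies correlated over all transcripts (Pearson 0.382 in males and 0.513 in females). The choice of members on body arrays can therefore also shape the strain counts in heads, which are not read as independent of the rule. Of the 799 transcripts called lower in male bodies, 197 were also called lower in male heads. In male heads 7 members were lower in lol, beside 2.31% of all transcripts, and 1 was higher, beside 2.37%, while 49 did not pass (limma, adjusted p under 0.05). The median difference was -0.16 log2, with 37 of 57 below 0, and 0.01 over all transcripts. Of the 60 transcripts biased in both strains, 1 was called higher and 0 lower, and of the 120 biased by 2 log2 in w1118 alone, 0 were higher and 2 lower. Every lol male head array lay below every w1118 male head array for 12 members, beside 7.41% of all transcripts. Without the 4 head arrays that stood apart, which leaves w1118 male heads with 1 array and borrows its spread from the remaining groups, 2 members were lower and 1 higher, with a median of -0.12. With the 6 compared arrays alone, 0 were lower and 1 was higher, while calls over all transcripts fell from 649 to 59. The lower calls were 4 without w1118 male head replicate 2 or without lol male head replicate 3. Calls over all transcripts were then 401 and 385.

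Of the 7 members lower in male heads, 6 were also called lower in male bodies, beside 61.6% of the 320 transcripts lower in male heads. The rule used the male body arrays, where 42.1% of members were called lower, beside 5.76% of all transcripts. The choice of members shapes this count, so nothing is read from it. The 7 members lower in male heads were all below 0 in female heads, and 2 of them passed there. The same shares among the 320 transcripts were not counted, so this is not read as a trait of the members. Of the 24 members called lower in male bodies, 21 were below 0 in male heads, a share of 87.5%, beside 90.7% of the 799 transcripts called lower in male bodies. FBtr0086819 was among the 7, at 11.91, 12.71 and 12.42 log2 in w1118 male heads and 10.07, 10.65 and 10.42 in lol male heads. The groups did not overlap, and the difference was -1.97 ± 0.38 (SE, adjusted p = 0.00373, limma). Its call was lost with the 6 compared arrays alone (adjusted p = 0.0591) and without the 4 head arrays (adjusted p = 0.11). FBtr0072787 was the exception among the 7 in bodies. It was at 11.04, 10.48 and 11.27 in w1118 male heads and 9.79, 9.99 and 9.92 in lol male heads, a difference of -1.03 ± 0.28 (SE, adjusted p = 0.0361, limma). Its male bodies differed by -0.15, at 8.82, 8.90 and 8.19 in w1118 and 8.75, 8.58 and 8.12 in lol. This call in heads was lost under 9 of the 13 alternatives that tested it.

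In female heads 2 members were lower in lol, beside 1.72% of all transcripts, and 1 was higher, beside 1.90%, while 54 did not pass. The median difference was -0.13 log2, with 34 of 57 below 0. Every lol array lay below every w1118 array for 14, beside 8.40%. Without the 4 head arrays 1 was lower and 1 higher, with a median of -0.15. FBtr0086819 was at 12.74, 13.16 and 12.19 in w1118 and 10.38, 10.80 and 12.01 in lol, a difference of -1.63 ± 0.38 (SE, adjusted p = 0.0179, limma). FBtr0078191 was at 13.45, 13.68 and 13.60 in w1118 and 13.18, 12.70 and 12.59 in lol, a difference of -0.75 (adjusted p = 0.021, limma). In both, the lol arrays were below the w1118 arrays, in FBtr0086819 by a narrow gap at lol replicate 3. Both calls were lost without w1118 female head replicate 2, without lol female head replicate 2, with head arrays alone and with the 6 compared arrays, so the lower count then was 0. Calls over all transcripts were then 304, 350, 242 and 171 in that order, against 503 in the main fit. FBtr0078191 also differed by -0.88 in male heads (adjusted p = 0.00598, limma), at 13.16, 13.39 and 13.61 in w1118 and 12.80, 12.30 and 12.42 in lol.

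FBtr0085605 was the member higher in lol heads of both sexes. It was at 8.17, 7.89 and 8.54 log2 in w1118 female heads and 9.45, 9.53 and 9.24 in lol female heads, a difference of 1.21 ± 0.18 (SE, adjusted p = 0.000477, limma). In male heads it was at 7.83, 7.59 and 7.83 in w1118 and 9.22, 9.31 and 9.35 in lol, a difference of 1.54 ± 0.18 (SE, adjusted p = 2.85e-05, limma). The groups were far apart in both sexes, and both calls were kept under the 13 alternatives that tested it. In bodies it was higher in lol females, at 10.17, 10.31 and 10.68 against 8.94, 8.91 and 9.30. In male bodies the strains overlapped, at 8.48, 7.98 and 8.56 in lol and 7.82, 8.14 and 7.72 in w1118.

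**Figure D4:**
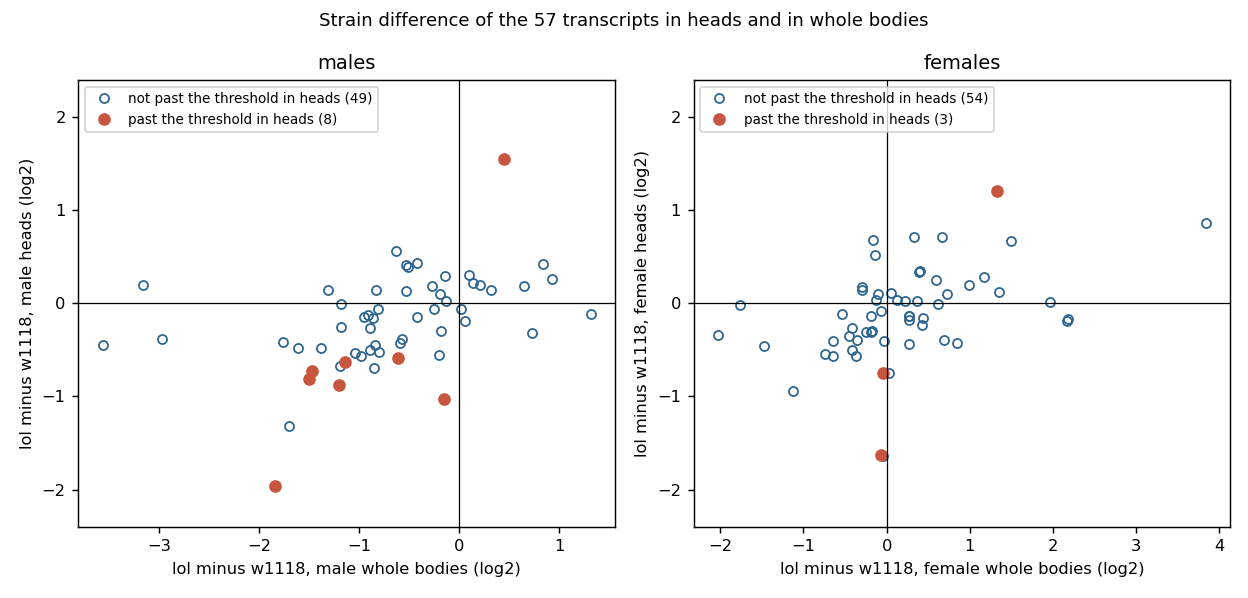
Log2 difference lol minus w1118 of the 57 members in heads against that in whole bodies, with males and females in separate panels and members called in heads filled. FBtr0085605 lies at 1.21 in female heads and 1.54 in male heads, and FBtr0086819 at -1.63 and -1.97.

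Among the members the sexes differed less in heads than in bodies. The members were chosen for a wide sex difference in bodies, so nothing is read from that drop. Over all transcripts the median female minus male difference in bodies was 0.26 log2 in w1118 and 0.38 in lol. In w1118 heads the median female minus male difference of the members was 0.25 log2, with 45 of 57 above 0, while 57.2% of all transcripts were above 0 with a median of 0.04. In lol heads it was 0.31, with 49 of 57 above 0, while 54.5% of all transcripts were, with a median of 0.02. Both strains were above 0 for 41 members and for 36.1% of all transcripts. The shift was not particular to the members, since 53 of the 60 transcripts biased in both strains and 102 of the 120 biased by 2 log2 in w1118 alone were above 0 in w1118 heads. In lol heads 47 and 80 of them were. Without the 4 head arrays the members' medians were 0.23 in w1118 and 0.22 in lol.

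Few members passed the test for sex in heads. In w1118 heads 1 was higher in females, beside 0.0432% of all transcripts, and in lol heads 2 were, beside 0.0577%. Every female array lay above every male array for 10 members in w1118 heads, beside 5.92%, and for 14 in lol heads, beside 3.48%. FBtr0073650 was called in both strains. It was at 13.68, 13.76 and 13.62 in w1118 female heads and 12.95, 13.02 and 13.14 in w1118 male heads, a difference of 0.65 ± 0.12 (SE, adjusted p = 0.0497, limma). In lol it was at 13.20, 13.10 and 13.54 in females and 12.31, 12.37 and 12.66 in males, a difference of 0.84 (adjusted p = 0.00896, limma). FBtr0070139 was called in lol, at 12.99, 13.02 and 13.06 in female heads and 11.85, 11.60 and 11.66 in male heads, a difference of 1.31 ± 0.23 (SE, adjusted p = 0.0235, limma). In w1118 its difference was 1.00 (adjusted p = 0.109). None of these 3 calls was kept with head arrays alone in the fit or without the 4 head arrays. In w1118 the count was 5 without male head replicate 3 and 0 without any other single array. FBtr0070139 lost its call whichever of the 6 lol head arrays was left out. Without the 4 head arrays 0 members were called in lol and 1 in w1118, in the opposite direction. This was FBtr0072608, at 8.03, 7.60 and 7.47 in w1118 female heads and 7.74, 7.70 and 9.33 in w1118 male heads, where the highest value was the 1 male array left (difference -1.63, adjusted p = 0.0374, limma).

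The wider sex difference by which members were chosen in lol bodies was not detected in heads. The genotype by sex difference in heads had a median of 0.005 log2 over members, 30 above 0, and the limma fit called 0 of 57, beside 0% of all transcripts. At an unadjusted p under 0.05 there was 1 member and 251 of all transcripts. Without the 4 head arrays the median was 0.03 and the count 0. The members' median lol minus w1118 difference was -0.16 log2 in male heads and -0.13 in female heads, against -0.63 in male bodies and 0.03 in female bodies. With 3 arrays a group the median SE of such a difference was 0.37. In bodies the same test called 1 of the 57, with a median widening of 0.77 log2. In heads it called 0 of all transcripts, whose differences ran from -2.68 to 4.68. A widening in heads as large as that in bodies could therefore also have been missed in a single member.

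How strongly members were expressed in heads differed widely. In females, averaged over both strains, 20 of the 57 were at least 2 log2 higher in bodies than in heads, with a median level over the 4 head groups of 8.32 log2. None of these 20 was called between the strains in either sex's heads. Over all transcripts 2.37% were called higher and 2.31% lower in male heads, and 1.90% and 1.72% in female heads. At such shares few calls would fall among 20 transcripts, so nothing is read from their absence. The median female minus male difference of the 20 in heads was 0.07 in w1118 and 0.22 in lol. The other 37 had a median head level of 10.66. They held all 8 members called in male heads and all 3 called in female heads, and their median female minus male difference in heads was 0.31 in w1118 and 0.41 in lol. The values of both classes include the 4 head arrays that stood apart. In males 32 of the 57 were lower in bodies than in heads, 9 of them by at least 1 log2, and in females 8 were.

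**Figure D5:**
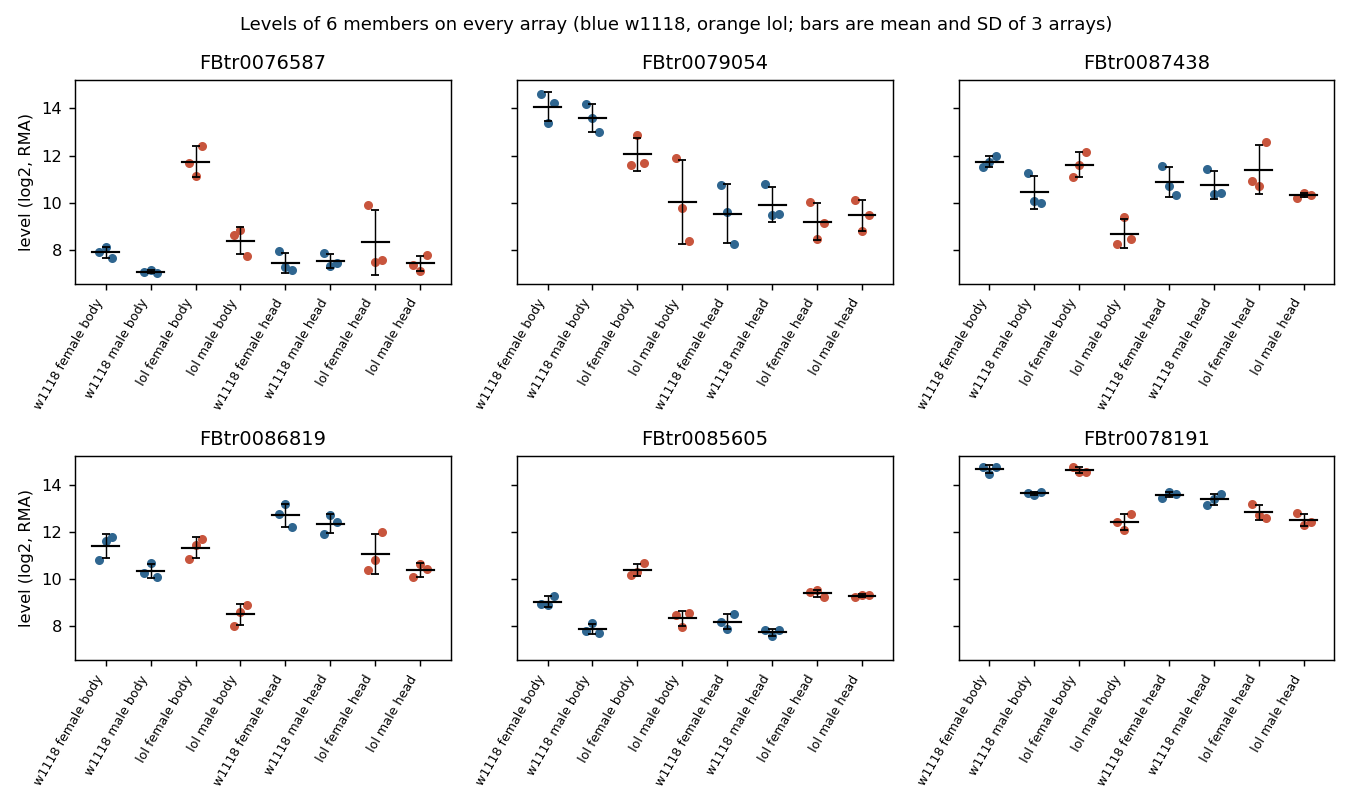
Levels (log2) of 6 members on every array, with w1118 in blue and lol in orange, points for arrays, and a line and bar for the mean and SD of 3 arrays. FBtr0086819 is lower in lol male bodies and in lol heads, while FBtr0085605 is higher in lol heads and in lol female bodies.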

How the data were processed

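The authors deposited log2 expression values made with RMA (robust multi-array average), per the submitters' processing notes. The sources used here give neither its version nor the set of arrays it was run on. Of 15595 transcripts, 1722 were without values throughout and were dropped. The number of arrays, 3 a group, limits the precision.

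A single limma fit (version 3.58.1, R 4.3.3, constant prior) with 8 group means over 24 arrays gave each comparison. P-values were adjusted by the Benjamini-Hochberg method over 13873 transcripts, and calls are at 0.05. The fit was tested on simulated data. The members, lists and tests were chosen with earlier results of these data known. Named members are those nearest the thresholds, the 2 highest in lol, the 2 with the widest difference of bias, and up to 2 called in each direction per head comparison. FBtr0079054, FBtr0076388, FBtr0087437, FBtr0079224 and FBtr0072608 were chosen after their values were seen.

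Samples with the same replicate number deviated together (each correlation over 0.1) in 2 of 8 comparisons, w1118 female against male heads and lol against w1118 male bodies, where the block gave 1 and 29 called members against 1 and 27 without it.

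Alternatives were other normalizations, priors and filters, fits to fewer arrays, the replicate block and leaving out each array.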

Additional observations from a re-analysis of the deposited data

Results flagged for a closer look

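In whole bodies the lol minus w1118 difference of FBtr0079224 was larger in females than in males by 1.52 ± 0.28 (SE) log2, and the limma test of that difference itself called it (adjusted p = 0.0292). Its female bodies were at 8.75, 8.95 and 9.02 in w1118 and 11.11, 10.75 and 11.38 in lol, and its male bodies at 8.27, 8.39 and 8.32 and at 8.76, 9.35 and 8.83. The transcript had been chosen on the same arrays. The call was lost under 9 of the 17 alternatives that tested it, with adjusted p-values between 0.014 and 0.103.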

How the results depend on the processing

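The count of 57 was 233 at 1.5 log2, 10 at 2.5 log2, 10 with w1118 under 1 log2, 110 after quantile normalization again (47 of them among the 57), 57 with medians of 3 arrays in place of means (39 of them among the 57), and 46 to 62 when each body array was left out. In female heads the 3 calls were 1 with head arrays alone or the 6 compared arrays, and 1 to 4 with an array left out. In male heads the 8 calls were 1 with the 6 compared arrays and 3 when the 4 head arrays that stood apart were dropped (a choice made with earlier results known), and they were 5 to 8 with an array left out. For sex in w1118 heads the 1 call was 0 with an intensity trend and robust prior or under either smaller fit, and 0 to 5 with an array left out. The 5 came where 1182 of all transcripts were called. In lol heads the 2 calls were 0 under both smaller fits and without the 4 arrays, and 0 to 1 with an array left out. The genotype by sex calls in heads stayed at 0. In bodies that call was 4 after quantile normalization, 2 after median centring, 0 without the lowest 25% of transcripts, 3 with the replicate block and 0 to 3 with an array left out. Without the lowest 25%, which removed 31 members, calls were 5 in female bodies between strains, 23 for sex in w1118 bodies and 25 in lol. With an array left out, body calls were 7 to 10 between strains in females, 15 to 30 in males, 44 to 49 for sex in w1118 and 54 to 57 in lol. No called value of a named member changed sign under the alternatives run, but medians close to 0 did. The median strain difference in female bodies was -0.13 without the lowest 25% (2 higher, 3 lower), against 0.03. The median genotype by sex difference in heads was -0.02 after median centring, against 0.005. It was 0.127 without the lowest 25% and -0.021 to 0.151 with an array left out. Without the lowest 25%, the median strain difference was -0.449 in male heads, against -0.163, and -0.326 in female heads, against -0.133. For sex in w1118 heads the 1 call without the 4 head arrays was lower in females. Apart from the construction of the smaller fits, the cause of these changes was not tested.

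Same-numbered samples deviated with correlations of -0.59 to 0.67 over the 8 comparisons. Every sample correlated best with its own number in 2 of them, lol against w1118 female bodies and lol against w1118 male bodies. In female bodies the lowest correlation was 0.085, under the 0.1 set for deviating together, and the block gave 15 called members against 13 without it. Outside these comparisons and those named with the processing, the numbers gave no pairing. Beside the genotype by sex count in bodies, the replicate block changed no count of members by over 1.5 times.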

Other observations

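Some members had neighbouring ID numbers. FBtr0079055 followed FBtr0079054 with the same scattered lol male bodies, at 10.47, 8.34 and 7.05 log2 against 11.90, 9.80 and 8.37. FBtr0070878 and FBtr0070879 both met the rule, with a female minus male difference in bodies of 2.10 and 2.66 log2 in lol and 1.51 and 1.57 in w1118. They were otherwise unlike, with a correlation of 0.257 over the 24 arrays, against 0.972 for FBtr0079054 and FBtr0079055. The lol minus w1118 difference of FBtr0070878 and FBtr0070879 was 0.72 and -0.30 in female bodies and 0.13 and -1.39 in male bodies. These transcripts were singled out after their values were seen. On lol female head replicate 1, where body-enriched transcripts stood high, FBtr0076587 was at 9.90, while the other lol female head arrays were at 7.56 or below, and the part of body RNA in that value was not tested.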
